A study of Mus musculus with 16 samples.

Results

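The genes described here are 28 genes of cholesterol synthesis, sterol uptake and the sterol-regulated transcription factor SREBP2, taken from 46078 genes counted in mouse liver. They were chosen by symbol, as enzymes of the pathway or as named parts of its control. All 28 were found by their Ensembl identifiers and all passed the filter on low counts, each with at least 93 reads in every library. They comprise 20 enzymes, 6 genes that encode SREBP2 and the proteins that hold, escort and cut it, 1 sterol transfer protein and 1 ubiquitin ligase.

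RNA-seq measured polyadenylated transcripts in livers of male mice of the strain labelled C56B6/J, for which no engineered allele is given and which entered the study at 8 weeks of age. For 16 weeks the mice ate either control diet (CD) or one in which fat gave 60% of calories (HFD, high-fat diet), and livers were taken from mice fed ad libitum or fasted for 16 h. The 4 groups, called CD fed, CD fast, HFD fed and HFD fast, held 4 libraries each, 1 per liver. The comparisons ask how fasting changes these genes on each diet, how diet changes them in each feeding state, and whether the change with fasting differs between diets.

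Cholesterol is built from acetyl-CoA by a chain of cytosolic and endoplasmic reticulum (ER) enzymes. Mevalonate is made and phosphorylated first, isoprenoid diphosphates are then joined into squalene, squalene is closed into lanosterol, and lanosterol is trimmed and reduced into cholesterol. Most enzymes of the chain are known targets of SREBP2, a membrane-bound transcription factor. When ER sterols are low, the escort protein SCAP carries SREBP2 to the Golgi, where the site-1 and site-2 proteases release its active part. When sterols are plentiful, INSIG proteins keep SCAP and SREBP2 in the ER. The liver is a main site of this pathway and exports sterol in lipoproteins and bile.

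Levels are given as CPM, the count of a gene relative to its library's total after TMM scaling, which aligns libraries on the trimmed mean of their gene-wise ratios. Library totals ranged from 41364448 to 57583153 counts and TMM factors from 0.929 to 1.13, the higher factors being those of HFD livers. The CD fed libraries were the deepest, at 55415835 to 57583153 counts, and did not overlap any other group. Totals were 41364448 to 53982285 in CD fast, 43709367 to 48039551 in HFD fed and 43743234 to 45440371 in HFD fast livers. The part of this difference in depth in the results was not tested. Changes are log2 fold changes with their standard errors (SE) from edgeR's quasi-likelihood test, and adjusted p are Benjamini-Hochberg values over the 15075 genes tested, with a threshold of 0.05. Because the labels do not describe litters, cages or batches, p-values measure the spread between these mice alone. Hepatocyte markers (Alb, Ttr, Apoa1, Serpina1a and Cps1) summed to between 69620 and 136000 CPM, while of 5 adipocyte markers Adipoq, Lep, Retn and Plin1 reached at most 45, 36, 7 and 18 counts in any library. The fifth, Cfd, reached 3095 counts, and the adipocyte sum was 70.3 CPM in HFD fast replicate 2 and at most 15.1 CPM in every other library. In bulk tissue, fewer cells of a type and less RNA per cell cannot be told apart.

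HFD fast replicate 3 stood apart from the other 3 HFD fast libraries in these genes. It was the highest of its group for 22 of the 28 genes and for 17 of the 20 enzymes. The summed level of the 20 enzymes was 1711 CPM in this library, against 855, 880.0 and 624 CPM in replicates 1, 2 and 4. In the same group replicate 4 was the lowest for 22 genes. HFD fed replicate 2 was the highest of its group for 19 genes, with a summed enzyme level of 1479 CPM against 1188, 1023 and 883 CPM in replicates 1, 3 and 4. For comparisons that use HFD livers, calls on single genes that changed without HFD fast replicate 3 are therefore given with and without it. As this library was singled out by its levels of these same genes, fits without it show its weight and are not independent support.

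Promoter sequences are shown for Hmgcs1, Insig1 and Acat2, the genes whose start regions held a sterol-element-type motif, and for Mylip, which rose with HFD in fed mice where 11 of the other genes fell. The sequences are those of RefSeq on GRCm38.p6, run from 250 bases before to 50 bases after the annotated start, and are written 5′ to 3′ on the strand of the gene. Capitals mark matches on either strand to TCACNCCAC, a form of the sterol regulatory element, to its core CACNCCAC, which every match to the longer motif contains, and to CCAAT, the box bound by NF-Y.
Hmgcs1, chr13:119690101-119690400, plus strand: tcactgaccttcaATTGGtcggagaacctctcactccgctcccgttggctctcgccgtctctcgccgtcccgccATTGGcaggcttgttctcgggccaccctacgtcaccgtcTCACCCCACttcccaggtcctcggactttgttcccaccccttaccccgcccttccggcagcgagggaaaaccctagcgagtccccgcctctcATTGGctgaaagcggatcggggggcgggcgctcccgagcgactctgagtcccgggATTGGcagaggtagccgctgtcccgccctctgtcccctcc
Insig1, chr5:28071162-28071461, plus strand: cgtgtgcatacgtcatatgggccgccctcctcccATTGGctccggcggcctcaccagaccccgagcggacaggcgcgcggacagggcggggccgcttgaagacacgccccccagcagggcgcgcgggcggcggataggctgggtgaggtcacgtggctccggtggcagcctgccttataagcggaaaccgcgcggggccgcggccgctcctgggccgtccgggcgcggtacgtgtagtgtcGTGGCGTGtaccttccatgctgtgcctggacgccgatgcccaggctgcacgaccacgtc
Acat2, chr17:12960676-12960975, minus strand: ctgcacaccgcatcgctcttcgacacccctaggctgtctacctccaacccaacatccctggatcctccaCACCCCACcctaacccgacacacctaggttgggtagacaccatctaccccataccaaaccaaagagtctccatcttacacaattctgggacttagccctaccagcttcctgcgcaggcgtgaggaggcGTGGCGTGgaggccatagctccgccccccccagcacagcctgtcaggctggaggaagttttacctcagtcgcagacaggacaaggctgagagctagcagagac
Mylip, chr13:45389492-45389791, plus strand: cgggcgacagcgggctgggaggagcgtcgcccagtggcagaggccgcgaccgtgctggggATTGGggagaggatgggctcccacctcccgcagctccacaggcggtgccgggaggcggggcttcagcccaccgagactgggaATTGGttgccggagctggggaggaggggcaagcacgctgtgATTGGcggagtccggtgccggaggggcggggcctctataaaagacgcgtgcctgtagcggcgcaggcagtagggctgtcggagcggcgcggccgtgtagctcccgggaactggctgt

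Of the 28 genes, 24 had such a promoter sequence, over 30 annotated starts. TCACNCCAC was found in 1 of the 24, Hmgcs1, where it lay 137 bases before the start, and in 1.44% of all 27025 genes with a sequence. CACNCCAC was found in 3 of the 24 and in 7.12% of all genes. It lay 136 bases before the start of Hmgcs1, 9 bases before that of Insig1, and 181 and 53 bases before that of Acat2. CCAAT was found in 20 of the 24 and in 41.1% of all genes, and Mylip was among those 20. A match describes the letters of the window and is not evidence of binding.

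**Figure D1:**
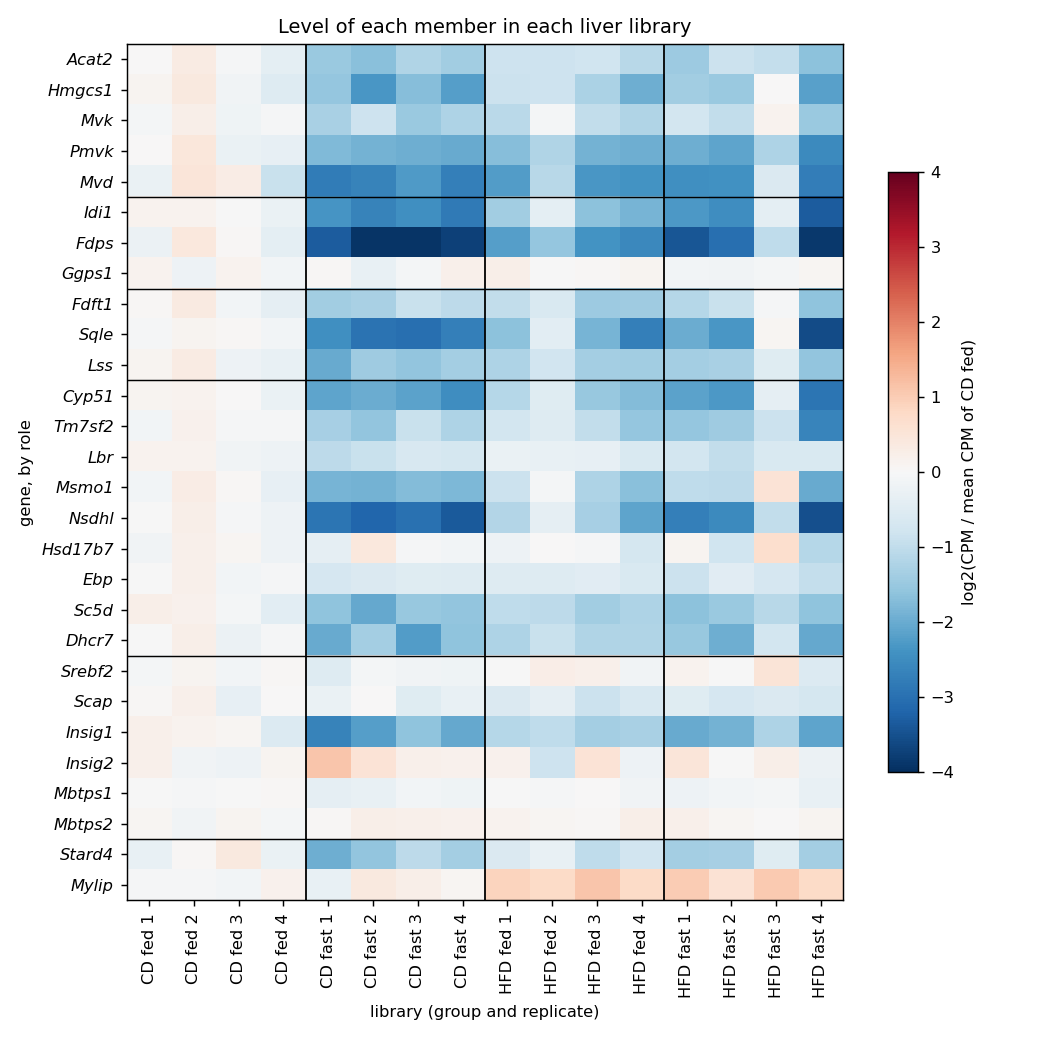
Level of each of the 28 genes (rows, grouped by role) in each of the 16 libraries (columns), as log2 of its CPM over the mean CPM of the CD fed group; blue is lower and red is higher. The 4 CD fast columns are blue for 21 genes whose libraries all lie below CD fed, HFD fast replicate 3 is paler than its group, and Mylip is red in all 8 HFD libraries.

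On CD, fasting lowered nearly the whole synthesis chain. Of the 28 genes 21 fell and 0 rose, where 11.5% of all genes tested fell and 13.7% rose (25.2% in either direction). The 21 were 18 of 20 enzymes, Insig1, Mbtps1 and Stard4, and in all 21 the highest CD fast library lay below the lowest CD fed library, as did 12.3% of all genes. The median log2 change was -1.44 over the 28 genes and -1.72 over the 20 enzymes, against -0.0092 over all genes. The summed level of the enzymes was between 1906 and 2739 CPM in CD fed and between 766 and 866 CPM in CD fast livers. Cell type markers also moved with this comparison. Those of endothelial cells had sums of 285 to 311 CPM in CD fed and 196 to 255 CPM in CD fast livers, with 3 of 5 genes called lower. Those of Kupffer cells had sums of 209 to 357 CPM and then 139 to 216 CPM, with 2 of 5 called lower, and those of stellate cells 204 to 265 CPM and then 131 to 216 CPM, with 1 of 5 called lower. Of the hepatocyte markers, with sums of 102500 to 135400 CPM and then 84680 to 107800 CPM, and of the erythrocyte markers, 1 of 5 each was also called lower. Their part in the result was not tested.

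All 5 genes of the mevalonate steps fell. Acat2, which joins acetyl-CoA units at the entry of the pathway (chr17:12942890-12960747, GRCm38, minus strand), had 72.5, 89.5, 70.1 and 55.4 CPM in CD fed and 25.6, 22.6, 30.9 and 27.4 CPM in CD fast livers. Its log2 change was -1.43 ± 0.17 (SE, n = 4 per group, adjusted p = 4.85e-05, edgeR), and reads may be shared with its near copy Acat3. Hmgcs1, the cytosolic HMG-CoA synthase (chr13:119690379-119708260, plus strand), had 278, 338, 236 and 181 CPM in CD fed and 87.96, 51.9, 79.98 and 56.3 CPM in CD fast livers, a log2 change of -1.90 ± 0.39 (adjusted p = 0.00277). Every fasted library of both genes thus held less than the lowest fed library. Mevalonate kinase, Mvk, had 17.4, 21.6, 16.4 and 17.9 CPM in CD fed and 7.48, 10.2, 6.52 and 7.77 CPM in CD fast livers, a change of -1.20 ± 0.30 (adjusted p = 0.00948). Pmvk, which adds the next phosphate, had 63.5, 86.5, 51.9 and 50.1 CPM and then 18.4, 17.04, 16.3 and 15.7 CPM, a change of -1.90 ± 0.24 (adjusted p = 8.39e-05). For Pmvk the 4 fasted livers lay within 3 CPM of each other, whereas the fed livers ranged from 50.1 to 86.5 CPM. Mvd, the decarboxylase that makes isopentenyl diphosphate, had 17.7, 29.7, 26.1 and 11.4 CPM in CD fed and 3.09, 3.35, 4.37 and 3.20 CPM in CD fast livers, a change of -2.60 ± 0.46 (adjusted p = 0.00104). Its fed values were the most uneven of the 5 genes, replicate 4 lying lowest at 11.4 CPM.

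The isoprenoid steps held the steepest fall and a gene that did not pass the threshold. Fdps, farnesyl diphosphate synthase (chr3:89093588-89101959, minus strand), had 30.8, 48.4, 37.6 and 27.5 CPM in CD fed and 3.58, 2.38, 2.36 and 2.72 CPM in CD fast livers. This was a 13.1-fold lower level by the fit, a log2 change of -3.71 ± 0.51 (adjusted p = 0.000141). Part of its exons, 1124 bases, overlap the gene model Gm43738 on the same strand, so its reads may be shared. Idi1, the isomerase upstream of it, had 175, 174, 156 and 132 CPM in CD fed and 30.9, 24.8, 29.2 and 22.5 CPM in CD fast livers, a change of -2.57 ± 0.49 (adjusted p = 0.00165). Both genes were low in each of the fasted livers with little spread. Ggps1, which lengthens farnesyl diphosphate for protein prenylation and does not lead to sterols, had group means of 6.64 ± 0.812 CPM in CD fed and 6.56 ± 0.954 CPM in CD fast livers (SD, n = 4). Its log2 change was -0.02 ± 0.11 with a 95% interval of -0.26 to 0.23 (adjusted p = 0.928).

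The 3 steps from farnesyl diphosphate to lanosterol fell. Squalene synthase, Fdft1, had 124, 154, 112 and 93.4 CPM in CD fed and 45.7, 48.7, 65.05 and 58.98 CPM in CD fast livers, a change of -1.14 ± 0.28 (adjusted p = 0.00769). Its exons overlap those of Ctsb on the other strand by 774 bases, and because the strand setting of the counting is not given in the sources used here, its level is uncertain. Sqle, squalene epoxidase and a controlled step of the pathway (chr15:59315077-59331192, plus strand), had 69.7, 78.3, 75.5 and 66.9 CPM in CD fed and 13.2, 9.34, 8.92 and 10.9 CPM in CD fast livers. It was 6.86-fold lower after fasting, a log2 change of -2.78 ± 0.61 (adjusted p = 0.00425). Lanosterol synthase, Lss, had 85.2, 98.8, 68.7 and 65.01 CPM in CD fed and 19.6, 29.96, 26.4 and 30.7 CPM in CD fast livers, a change of -1.57 ± 0.23 (adjusted p = 0.000212). Sqle had a wide gap between its groups, the lowest fed value being 66.9 CPM and the highest fasted value 13.2 CPM.

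Of the 9 genes that turn lanosterol into cholesterol, 8 fell. Lanosterol demethylase, Cyp51, had 167, 170.3, 158 and 129.9 CPM in CD fed and 36.3, 39.8, 35.03 and 28.01 CPM in CD fast livers, a change of -2.17 ± 0.43 (adjusted p = 0.00212). Tm7sf2 and Lbr encode sterol reductases that act at the same step, and LBR is also the lamin receptor of the nuclear envelope. Tm7sf2 had 122, 146, 126 and 127 CPM in CD fed and 51.95, 43.8, 70.0 and 55.8 CPM in CD fast livers, a change of -1.23 ± 0.28 (adjusted p = 0.00519), and shares 532 exonic bases with Vps51 on its strand. Lbr had 12.3, 12.3, 10.1 and 9.63 CPM in CD fed and 5.38, 6.04, 7.05 and 6.88 CPM in CD fast livers, a smaller change of -0.81 ± 0.12 (adjusted p = 0.000292).

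Msmo1, Nsdhl and Hsd17b7 remove methyl groups from the sterol ring in turn. Msmo1 had 96.9, 128, 108 and 83.1 CPM in CD fed and 28.7, 28.2, 31.1 and 29.8 CPM in CD fast livers, a change of -1.82 ± 0.42 (adjusted p = 0.00601). Nsdhl (chrX:72918557-72958514, plus strand) had 87.4, 104, 85.2 and 77.7 CPM in CD fed and 11.7, 9.82, 11.1 and 8.53 CPM in CD fast livers. At 8.61-fold lower, a log2 change of -3.11 ± 0.45 (adjusted p = 0.000216), its fall was second in size to that of Fdps among the 28 genes. Hsd17b7, the last of these enzymes, had the same group mean in both states, 71.4 ± 9.86 CPM in CD fed and 71.4 ± 17.2 CPM in CD fast livers (SD, n = 4), with a 95% interval of its log2 change of -0.64 to 0.64.

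The final isomerase, desaturase and reductase fell to different extents. Ebp, the sterol isomerase, had 213, 248, 199 and 208 CPM in CD fed and 136, 146, 157 and 153 CPM in CD fast livers, a change of -0.55 ± 0.10 (adjusted p = 0.00137), the smallest among the enzymes that fell. Sc5d, the sterol desaturase (chr9:42251595-42264256, minus strand), had 633, 604, 506 and 405 CPM in CD fed and 176, 131, 189 and 179 CPM in CD fast livers, a change of -1.67 ± 0.16 (adjusted p = 1.10e-05). Dhcr7, the last reductase of the chain, had 101, 121, 87.2 and 98.8 CPM in CD fed and 25.2, 39.6, 21.5 and 33.3 CPM in CD fast livers, a change of -1.77 ± 0.25 (adjusted p = 0.000186). The 4 fasted libraries lay below all fed libraries in each of these genes.

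Of the 6 genes of SREBP2 and its handling, Insig1 and Mbtps1 fell and the other 4 did not pass the threshold. Srebf2 itself had group means of 53.1 ± 4.04 CPM in CD fed and 45.8 ± 5.97 CPM in CD fast livers (SD, n = 4), a log2 change of -0.21 ± 0.17 (adjusted p = 0.382). The escort gene Scap changed by -0.23 ± 0.13 (adjusted p = 0.195). Mbtps1, the site-1 protease, had 79.5, 78.5, 79.9 and 83.5 CPM in CD fed and 62.8, 65.2, 73.7 and 71.9 CPM in CD fast livers, a small fall of -0.23 ± 0.07 (adjusted p = 0.0232). That call was lost in 3 of 16 fits that left out 1 library and in the fit of these groups alone (adjusted p = 0.0528). Mbtps2, the site-2 protease, changed by 0.17 ± 0.08 (adjusted p = 0.150).

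The anchor genes differed from each other. Insig1, itself a known SREBP target (chr5:28071363-28078662, plus strand), had 368, 347, 335 and 218 CPM in CD fed and 50.1, 68.9, 104 and 77.2 CPM in CD fast livers. Its log2 change was -2.08 ± 0.23 (adjusted p = 2.69e-05), and no fasted library reached the lowest fed library. Insig2, which in liver has a transcript known to respond to insulin and fasting, had 243, 191, 184 and 228 CPM in CD fed and 459, 312, 241 and 239.5 CPM in CD fast livers. The change of Insig2 was 0.56 ± 0.26 and missed the threshold (adjusted p = 0.122). Per kilobase of exon, the ratio of Insig2 to Insig1 was 0.626 ± 0.210 in fed and 4.25 ± 2.73 in fasted livers on CD (mean ± SD, n = 4). On HFD it was 1.40 ± 0.634 in fed and 2.32 ± 0.709 in fasted livers, or 2.54 ± 0.676 (n = 3) without HFD fast replicate 3. On CD, single livers ranged from 0.490 to 0.934 when fed and from 2.06 to 8.15 when fasted.

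Stard4, which moves sterol between membranes, had 112, 141, 179 and 115 CPM in CD fed and 35.7, 45.5, 66.4 and 53.7 CPM in CD fast livers. It fell with a log2 change of -1.44 ± 0.23 (adjusted p = 0.000533). Mylip, the ubiquitin ligase IDOL that marks lipoprotein receptors for degradation and is a known target of the sterol sensor LXR, had 8.89, 8.81, 8.35 and 10.3 CPM in CD fed and 7.33, 11.9, 10.8 and 9.60 CPM in CD fast livers. Its groups overlapped and its change was 0.12 ± 0.14 (adjusted p = 0.553).

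**Figure D2:**
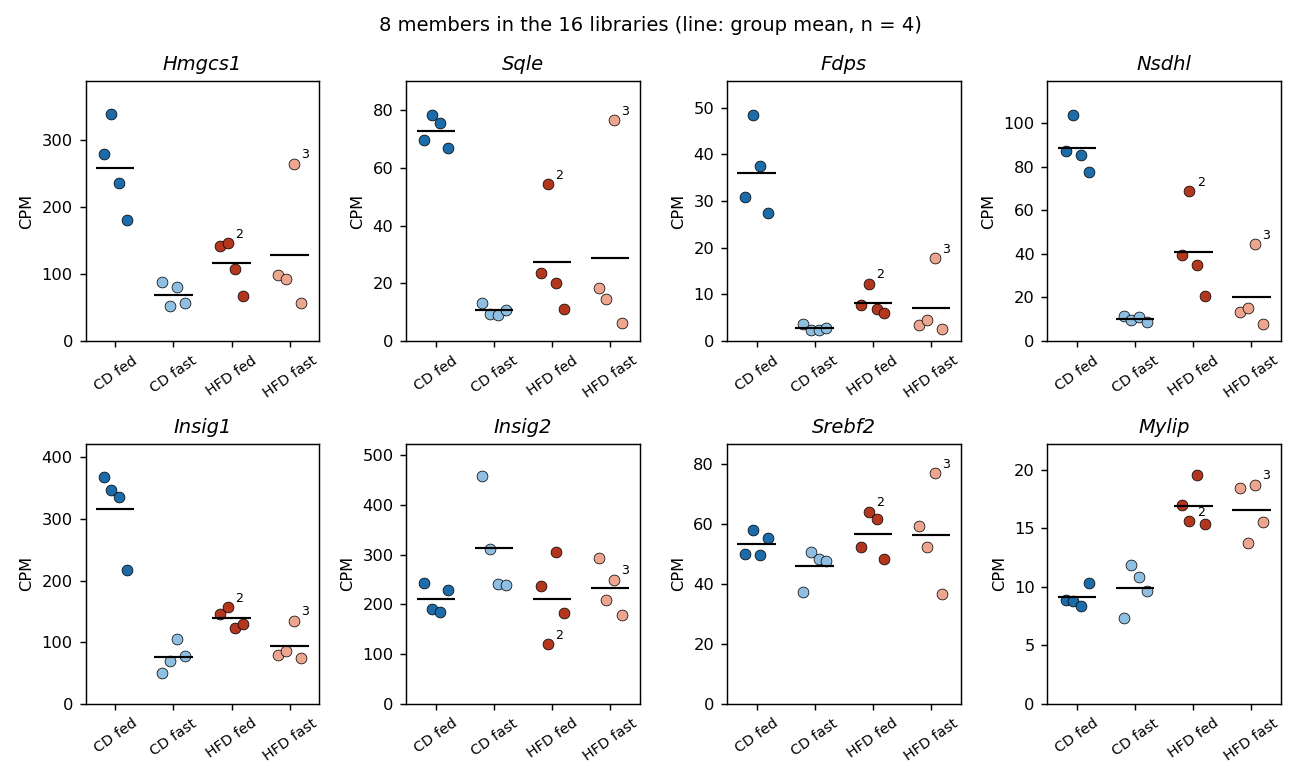
Level in CPM (vertical axes, linear and starting at 0) of 8 of the genes in each library, by group; each point is 1 liver, the line is the group mean (n = 4), and the digits mark HFD fast replicate 3 and HFD fed replicate 2. The CD fed points of Hmgcs1, Sqle, Fdps, Nsdhl and Insig1 lie above all CD fast points, and the 8 HFD points of Mylip lie above the 8 CD points.

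In fed mice, HFD lowered part of the same chain. This comparison shares the CD fed libraries with that of fasting on CD. Of the 28 genes 11 fell and 1 rose, where 4.22% of all genes fell and 3.28% rose (7.50% in either direction). A further 9 had an unadjusted p under the threshold, so that 21 of the 28 did in all, where 3449 of all 15075 genes did. The median log2 change was -0.89 over the 28 genes and -1.12 over the 20 enzymes, against 0.0066 over all genes. In 19 of the 28 genes all HFD fed libraries lay below all CD fed libraries, as in 8.51% of all genes, and in 1 gene all lay above, as in 7.22%. The summed enzyme level was 883 to 1479 CPM in HFD fed livers. Without HFD fast replicate 3, which enters this fit through the estimate of spread, 18 genes were called, where 6.62% of all genes were.

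Among the mevalonate and isoprenoid genes, Acat2, Pmvk, Mvd and Fdps fell. Acat2 had 40.7, 40.6, 41.01 and 33.7 CPM in HFD fed livers, of which replicate 4 lay well below the other 3, and changed by -0.88 ± 0.17 (adjusted p = 0.00622). Pmvk had 19.5, 27.3, 16.97 and 16.3 CPM, a change of -1.66 ± 0.24 (adjusted p = 0.00121). Mvd had 4.55, 9.76, 4.21 and 4.05 CPM, a change of -1.91 ± 0.45 (adjusted p = 0.0183), which was lost in 3 of the 16 fits with 1 library left out. All 4 HFD fed values of Mvd lay below the lowest CD fed value. Fdps had 7.82, 12.3, 6.86 and 5.99 CPM, 4.38-fold lower than in CD fed livers and a log2 change of -2.13 ± 0.47 (adjusted p = 0.0130). Hmgcs1 had 142, 146, 107 and 67.3 CPM, all below CD fed, with a change of -1.16 ± 0.38 that missed the threshold (adjusted p = 0.0771, or 0.0193 without HFD fast replicate 3). Idi1 had 61.5, 120.4, 50.7 and 43.98 CPM, a change of -1.21 ± 0.47 (adjusted p = 0.131, or 0.0199 without that library). Both were also called in the fit of these groups alone. HFD fed replicate 2 was the highest of its group for Idi1 and nearly reached the lowest CD fed value of 132 CPM. Mvk had 8.58, 17.4, 9.31 and 8.001 CPM, a change of -0.76 ± 0.30 (adjusted p = 0.135), and replicate 2 alone lay within the CD fed range.

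Of the later enzymes, Fdft1, Lss, Ebp, Sc5d and Dhcr7 fell with HFD in fed mice. Fdft1 had 60.5, 78.5, 43.7 and 45.4 CPM in HFD fed livers, a change of -1.08 ± 0.28 (adjusted p = 0.0282), and this call was lost in 5 of 16 fits with 1 library left out (adjusted p up to 0.0923). Lss had 33.7, 46.95, 30.6 and 30.5 CPM, a change of -1.16 ± 0.23 (adjusted p = 0.00641). All HFD fed libraries of these lay below CD fed. Ebp had 153, 152, 158 and 142 CPM, a change of -0.52 ± 0.10 (adjusted p = 0.00697). Sc5d had 265, 261, 206 and 228 CPM, a change of -1.16 ± 0.16 (adjusted p = 0.000706), the smallest p among the 28 genes in this comparison. Dhcr7 had 43.3, 55.2, 44.6 and 44.7 CPM, replicate 2 lying apart above the other 3, and changed by -1.12 ± 0.25 (adjusted p = 0.0133). Sc5d and Ebp were even across the 4 HFD fed livers.

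The other enzymes missed the threshold here, several of them with a wide spread between HFD fed livers. Sqle had 23.4, 54.4, 20.01 and 11 CPM, a change of -1.42 ± 0.58 (adjusted p = 0.152). Cyp51 had 70.4, 111, 55.03 and 47.3 CPM, a change of -1.14 ± 0.42 (adjusted p = 0.107). In both, every HFD fed library lay below CD fed, and replicate 2 held more than any other HFD fed library. Nsdhl had 39.7, 68.7, 34.9 and 20.6 CPM, a change of -1.11 ± 0.42 (adjusted p = 0.120). Msmo1 had 57.4, 98.7, 43.9 and 32.4 CPM, of which replicate 2 lay inside the CD fed range, and a change of -0.84 ± 0.41 (adjusted p = 0.240). Tm7sf2 had 77.6, 91.9, 65.2 and 44.3 CPM, a change of -0.90 ± 0.28 (adjusted p = 0.0601). Lbr, by contrast even, had 9.15, 9.08, 8.76 and 7.29 CPM and a change of -0.37 ± 0.12 (adjusted p = 0.0716). Without HFD fast replicate 3, 4 of these passed the threshold, Sqle (adjusted p = 0.0420), Cyp51 (0.0102), Nsdhl (0.0304) and Tm7sf2 (0.0398). Cyp51 and Tm7sf2 were also called in the fit of these groups alone (0.0239 and 0.0242), and DESeq2 called Lbr and Tm7sf2 lower (0.0356 and 0.0154).

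Among the control genes, Insig1 and Scap fell with HFD in fed mice. Insig1 had 145, 157, 123 and 129 CPM in HFD fed livers, a change of -1.19 ± 0.23 (adjusted p = 0.00580). Scap had 185, 204, 142 and 179.5 CPM in CD fed and 119, 139, 97.5 and 114 CPM in HFD fed livers, a change of -0.60 ± 0.13 (adjusted p = 0.0119). Scap shares 985 exonic bases with 5830462I19Rik on the other strand. Srebf2 changed by 0.09 ± 0.17, Insig2 by -0.00 ± 0.26, Mbtps1 by -0.04 ± 0.07 and Mbtps2 by 0.13 ± 0.08, none past the threshold. Stard4 had 91.4, 111, 67.6 and 80.8 CPM, all below CD fed, with a change of -0.64 ± 0.23 (adjusted p = 0.101).

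Mylip rose with HFD in fed mice, where each enzyme that passed the threshold fell. It had 17.01, 15.6, 19.6 and 15.3 CPM in HFD fed livers (chr13:45389742-45412022, plus strand), every one above the highest CD fed value of 10.3 CPM. Its log2 change was 0.89 ± 0.14, a 1.86-fold higher level (adjusted p = 0.00172). The call was kept in each of the 16 fits with 1 library left out.

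**Figure D3:**
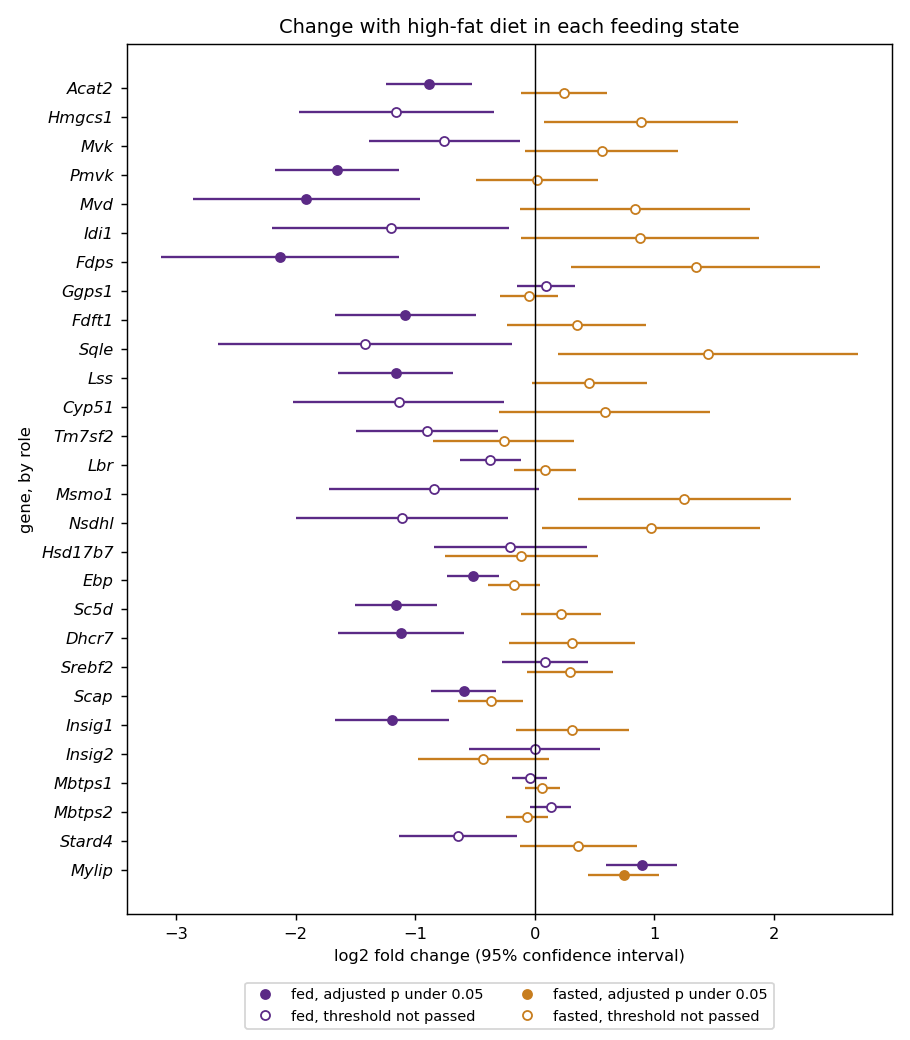
Log2 fold change of each gene with HFD (horizontal axis) in fed mice (purple) and in fasted mice (orange), with 95% confidence intervals from edgeR; filled points passed an adjusted p of 0.05 and open points did not. In fed mice 11 filled points lie below 0 and Mylip above it, and in fasted mice Mylip is the 1 filled point.

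On HFD, fasting changed none of the 28 genes past the threshold. edgeR called 0, where 8.86% of all genes were called (4.07% lower and 4.78% higher). limma-voom called 0 and DESeq2 called 1, Lbr (log2 change -0.36, adjusted p = 0.0462). In edgeR 4 of the 28 had an unadjusted p under 0.05, where 3864 of all 15075 genes did. The median log2 change was -0.14 over the 28 genes, against 0.0079 over all genes. The 4 with an unadjusted p under 0.05 were Tm7sf2, Lbr, Nsdhl and Insig1, with changes of -0.59, -0.35, -1.02 and -0.57. Lbr, with 6.70, 5.64, 7.28 and 7.23 CPM in HFD fast livers, was the 1 gene whose HFD fast libraries all lay below HFD fed, as did 8.66% of all genes, and 0 of the 28 lay wholly above, as did 8.02%. The summed level of hepatocyte markers did not overlap between these groups, at 107500 to 136000 CPM in HFD fed and 69620 to 101000 CPM in HFD fast livers. Of the 5 hepatocyte markers 0 were called, and 3 had an unadjusted p under 0.05. Most of that sum is Alb, with 2284942 to 5917642 counts per library, where no other hepatocyte marker exceeded 685871. Of the erythrocyte markers 1 of 5 rose and 1 fell, and the adipocyte marker Cfd rose by 3.78 on the log2 scale. The part of these in the result was not tested.

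The HFD fast libraries were uneven. Hmgcs1 had 97.8, 91.99, 264 and 57.04 CPM, so that replicate 3 lay inside the CD fed range and replicate 4 inside the CD fast range. Sqle had 18.3, 14.5, 76.5 and 6.14 CPM, with replicate 3 again at a CD fed level. Fdps had 3.38, 4.42, 17.7 and 2.50 CPM, with 3 libraries near the CD fast level of 2.76 ± 0.573 CPM (SD, n = 4) and replicate 3 above every HFD fed library. Idi1 had 32.4, 28.6, 120.5 and 15.98 CPM. Cyp51 had 35.4, 31.5, 121 and 20.5 CPM. Nsdhl had 13.2, 15.2, 44.5 and 7.66 CPM. In each of these 6 genes replicate 3 was the highest and replicate 4 the lowest. Msmo1 had 51.7, 50.4, 152 and 25.97 CPM, replicate 3 exceeding the highest CD fed library at 128 CPM.

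Replicate 3 was also the highest for most of the remaining enzymes. Mvk had 10.9, 9.20, 20.3 and 6.58 CPM. Mvd had 3.88, 3.97, 14.1 and 3.13 CPM. Pmvk had 16.3, 14.6, 26.7 and 10.8 CPM. In all of these replicate 3 was the highest and replicate 4 the lowest. Fdft1 had 54.6, 65.5, 118 and 39.9 CPM. Lss had 30.6, 32.5, 56.5 and 26.8 CPM. Tm7sf2 had 44.2, 48.2, 71.5 and 21.1 CPM. These again placed replicate 3 first. Dhcr7 had 35.6, 26.6, 61.5 and 24.5 CPM. Sc5d had 172, 192, 247 and 175 CPM. Acat2 and Ebp differed in that replicate 2 was the highest of the group. Acat2 had 26.4, 39.3, 37.4 and 22.9 CPM. Ebp had 119, 159, 136 and 111 CPM. Of the control genes, Insig1 had 78.7, 86.1, 135 and 73.8 CPM and Stard4 had 53.4, 54.9, 97.2 and 53.8 CPM, both highest in replicate 3. Scap had 128, 112, 119 and 109 CPM. Mbtps1 had 79.6, 78.1, 82.02 and 72.4 CPM in HFD fed and 69.5, 74.2, 76.7 and 65.3 CPM in HFD fast livers, with a narrow range.

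Without HFD fast replicate 3, fasting on HFD lowered 5 of the 28 genes, where 4.73% of all genes were called in either direction. These were Nsdhl (log2 change -1.77 ± 0.32, adjusted p = 0.00881), Cyp51 (-1.28 ± 0.26, 0.0137), Fdps (-1.26 ± 0.27, 0.0201), Idi1 (-1.43 ± 0.31, 0.0202) and Insig1 (-0.80 ± 0.21, 0.0438). In that fit all 20 enzymes had an estimate below 0, with a median of -0.47 against 0.011 over all genes. An unadjusted p under 0.05 was found for 14 of the 28 genes and for 3220 of all 15075 genes. With the library in the fit, 12 of the 20 enzymes had an estimate below 0. That library was singled out by its high levels of these same genes, so its omission lowers most estimates by construction. Without HFD fed replicate 2 instead, 0 of the 28 genes were called, where 5.78% of all genes were. The fit without HFD fed replicate 2 put 11 of the 20 enzymes below 0, with a median of -0.058 against 0.0091 over all genes. Lbr was also called without HFD fed replicate 4 (log2 change -0.42, adjusted p = 0.0461), and Ebp without HFD fast replicate 2 (-0.32, 0.0425). The count of 0 thus depends on which livers are included.

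**Figure D4:**
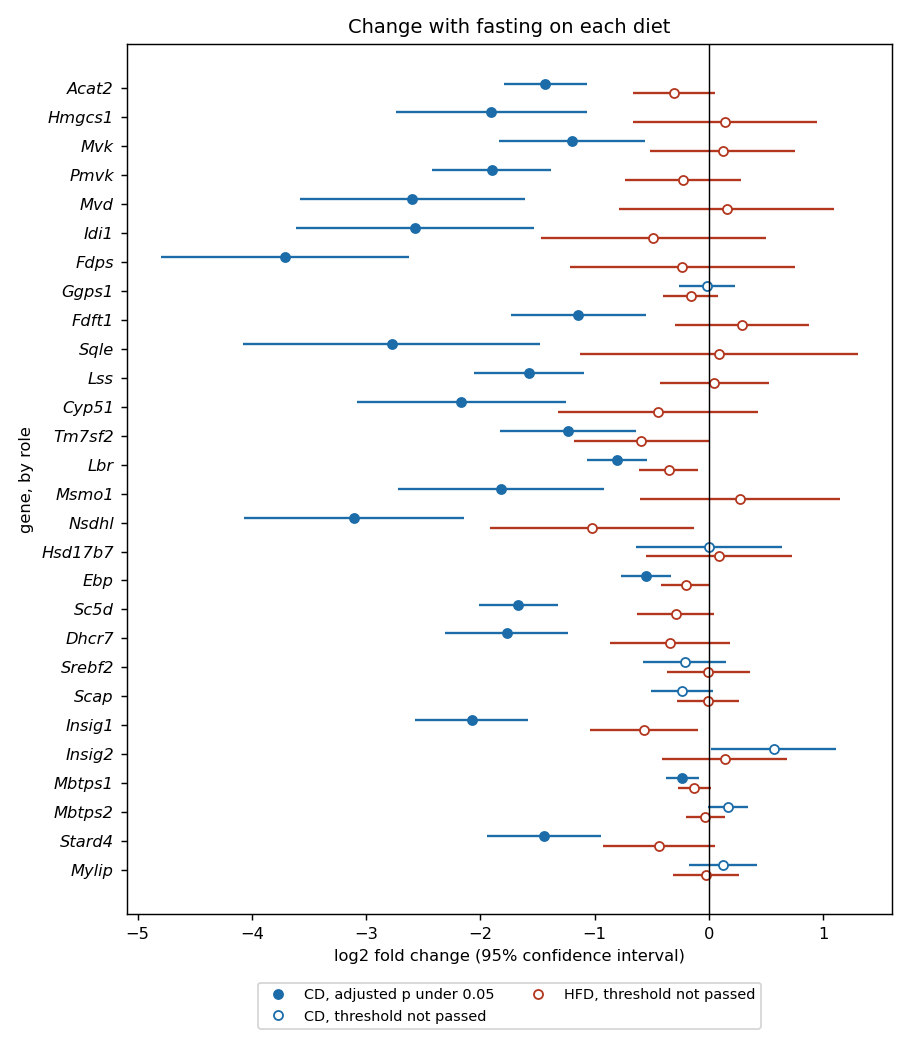
Log2 fold change of each gene with fasting (horizontal axis) on CD (blue) and on HFD (red), with 95% confidence intervals from edgeR; filled points passed an adjusted p of 0.05 and open points did not. All 21 filled points are those of CD and lie below 0, and the HFD intervals are wide for Sqle, Idi1, Fdps and Mvd.

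In fasted mice, HFD changed 1 of the 28 genes past the threshold, where 7.70% of all genes were called (4.65% lower and 3.05% higher). This comparison shares its CD fast libraries with that of fasting on CD and its HFD fast libraries with that of fasting on HFD. Mylip rose by 0.74 ± 0.14 on the log2 scale (adjusted p = 0.00777), with 18.4, 13.7, 18.7 and 15.5 CPM in HFD fast livers, all above the highest CD fast value of 11.9 CPM, as in 6.55% of all genes. Its adjusted p was 0.0589 when these groups were fitted alone. Of the 20 enzymes 16 had an estimate above 0 and 0 passed the threshold in edgeR, with 5 at an unadjusted p under 0.05. Of all 15075 genes, 7846 had an estimate above 0 and 3905 had such a p. The largest estimates among the enzymes were those of Sqle (1.45 ± 0.59, adjusted p = 0.134), Fdps (1.34 ± 0.49, 0.0992) and Msmo1 (1.25 ± 0.42, 0.0774). DESeq2 called Msmo1 higher (adjusted p = 0.0486) and Scap lower (0.0452). Without HFD fast replicate 3, 11 of the 20 enzymes had an estimate above 0, 0 had an unadjusted p under 0.05, and their median was 0.051 instead of 0.40, against 0.015 over all genes. Of the 15075 genes, 3336 had such a p in that fit. In that fit Mylip kept its call (0.68 ± 0.15, adjusted p = 0.0267), where 3.65% of all genes were called.

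No other control gene passed the threshold of the edgeR test between diets in fasted mice, whereas Scap passed it with DESeq2 and with the replicate number as a block (-0.35, adjusted p = 0.0399) and Mbtps1 with total-count scaling (0.22, 0.0253). Scap was the 1 gene whose HFD libraries all lay below CD, as did 7.45% of all genes, with 149, 181, 128 and 146 CPM in CD fast livers, and its change was -0.37 ± 0.13 (adjusted p = 0.0867). Insig1 changed by 0.31 ± 0.22 (adjusted p = 0.398) and Insig2 by -0.43 ± 0.26 (adjusted p = 0.311). The endothelial markers were higher on HFD in this comparison, with 3 of 5 called and sums of 250.8 to 332 CPM in HFD fast against 196 to 255 CPM in CD fast livers. Of the stellate cell and erythrocyte markers 1 of 5 each was called higher. Their part in the result was not tested. Scaling by total counts moved the median of all genes from 0.013 to 0.17 and the called genes from 1 to 3, adding Msmo1 and Mbtps1.

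The change with fasting differed between diets for 8 of the 28 genes by the interaction test, where 2.59% of all genes were called, 1.23% in this direction and 1.36% in the other. In all 8 the log2 change was below 0 on CD and higher on HFD, where it was above 0 for Mvd (0.16) and Lss (0.05). The 8 were the enzymes Acat2, Pmvk, Mvd, Fdps, Lss, Sc5d and Dhcr7, and Insig1. Fdps had the largest difference, 3.47 ± 0.68 (adjusted p = 0.0173), from a change of -3.71 on CD and -0.23 on HFD. Sc5d had the smallest p, with a difference of 1.38 ± 0.22 (adjusted p = 0.00856) from -1.67 on CD and -0.29 on HFD. Insig1 differed by 1.51 ± 0.32 (adjusted p = 0.0241), from -2.08 and -0.57. In each of these 3 genes the HFD fed libraries lay below all CD fed libraries.

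The other 5 differences were between 1.12 and 2.75. Mvd differed by 2.75 ± 0.63 (adjusted p = 0.0340), Pmvk by 1.68 ± 0.34 (adjusted p = 0.0208) and Lss by 1.62 ± 0.32 (adjusted p = 0.0177). Dhcr7 differed by 1.43 ± 0.35 (adjusted p = 0.0416) and Acat2 by 1.12 ± 0.24 (adjusted p = 0.0256). Over the 28 genes the median difference was 1.35, against -0.0015 over all genes, 24 estimates were above 0 and 19 had an unadjusted p under 0.05. Of all 15075 genes, 7508 had an estimate above 0 and 3045 had such a p. Without HFD fast replicate 3 the median was 0.97 and 5 genes were called, Fdps (2.44 ± 0.36), Sc5d (1.25 ± 0.21), Pmvk (1.38 ± 0.28), Lss (1.33 ± 0.25) and Insig1 (1.28 ± 0.28), where 1.08% of all genes were. The calls of Mvd and Dhcr7 were lost in 7 and 12 of the 16 fits with 1 library left out. Without CD fed replicate 2 the count was 4, without HFD fed replicate 3 it was 5 and without HFD fast replicate 4 it was 13, and DESeq2 called 15. Ggps1, Hsd17b7, Srebf2, Mbtps1, Mbtps2, Insig2 and Mylip had differences between -0.43 and 0.21, none past the threshold. The interaction estimates of the marker lists lay on both sides of 0. Those of endothelial cells were above 0 in 5 of 5 with a median of 0.53, 4 of them at an unadjusted p under 0.05, and those of Kupffer cells in 5 of 5 with a median of 0.33, 2 of them at such a p. Of these 10 genes 0 were called by edgeR, and 1 of 5 erythrocyte markers was called higher. The estimates were below 0 for 4 of 5 hepatocyte markers, with a median of -0.26, and for 4 of 5 cholangiocyte markers, with a median of -0.45. Their part in the result was not tested.

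In CD fed livers the levels per kilobase of exon ranged from 0.699 to 110 CPM over the 28 genes. Sc5d (110 ± 21.3), Insig1 (102 ± 21.8) and Ebp (93.9 ± 9.17 CPM per kilobase, mean ± SD, n = 4) came first and did not differ beyond their spread. Insig2 followed at 60.9 ± 8.15, its highest library lying below the lowest of Ebp, and overlapped Hmgcs1 at 56.2 ± 14.5. Sqle at 13.1 ± 0.939, Mvd at 11.4 ± 4.43, Fdps at 8.57 ± 2.20, Lss at 7.36 ± 1.45 and Mvk at 6.84 ± 0.844 stood low among the enzymes. Only Lbr and Ggps1 had lower means among them. Srebf2 (7.39 ± 0.562) and Mbtps1 (7.62 ± 0.208) did not differ beyond their spread. The lowest were Mylip (2.81 ± 0.262) and Lbr (2.33 ± 0.296), which overlapped, then Ggps1 (1.41 ± 0.172) and Mbtps2 (0.699 ± 0.0559), which did not. Mbtps2 shares 2867 exonic bases with Yy2 on its strand.

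Other genes tied to the same transcription factors moved in part with these. Of 8 further SREBP targets 7 were tested, and 6 fell with fasting on CD, where 11.5% of all genes fell, among them Acly (ATP citrate lyase, log2 change -2.47), Rdh11 (-2.60) and Acss2 (acetyl-CoA synthetase, -2.30). On HFD 2 of them fell with fasting, against 4.07% of all genes, Acly (-0.98, adjusted p = 0.00667) and Rdh11 (-0.90, 0.0185). HFD in fed mice lowered 4, against 4.22% of all genes, with Acly at -1.77, Acss2 at -2.21 and Rdh11 at -1.81. In fasted mice HFD raised 1, against 3.05% of all genes, which was Aacs, the acetoacetyl-CoA synthetase, by 1.79 ± 0.53 (adjusted p = 0.04995), a call that was lost without HFD fast replicate 3 (1.44 ± 0.54, 0.136). The interaction was called for Acly (1.49), Rdh11 (1.71) and Acss2 (1.99), where 1.23% of all genes were called in this direction.

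Fatty acid synthesis, which is driven by SREBP1 and ChREBP, had calls for fasting on both diets. Of its 10 genes 10 fell with fasting on CD and 7 on HFD, or 4 on HFD without HFD fast replicate 3. Of all genes, 11.5% fell with fasting on CD and 4.07% on HFD, and 4.73% were called in either direction on HFD without that library. Fasn, fatty acid synthase, changed by -3.44 ± 0.20 on CD and -1.47 ± 0.19 on HFD (adjusted p = 1.20e-07 and 0.000445). Acaca, acetyl-CoA carboxylase, changed by -2.02 on CD and -1.03 on HFD, and Srebf1 by -1.06 on HFD (adjusted p = 0.00624). In fed mice HFD lowered 7 of the 10, or 6 without that library, against 4.22% of all genes, with Pnpla3 at -3.71. In fasted mice HFD raised 2 and lowered 1 of the 10, where 3.05% of all genes rose and 4.65% fell. It raised Srebf1 by 1.21 ± 0.20 (adjusted p = 0.00512) and Thrsp, a lipogenic regulator, by 3.07 ± 0.60 (0.00863). It lowered Elovl6, a fatty acid elongase, by -0.90 ± 0.25 (0.0377), a call lost without HFD fast replicate 3 (0.0958). Srebf2 changed by 0.29 ± 0.17 (adjusted p = 0.295). The interaction was called for 4 of the 10, all above 0, against 1.23% of all genes in that direction, among them Pnpla3 (3.80), Fasn (1.97) and Acaca (0.99). Whether the 2 lists differ in their response was not tested.

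**Figure D5:**
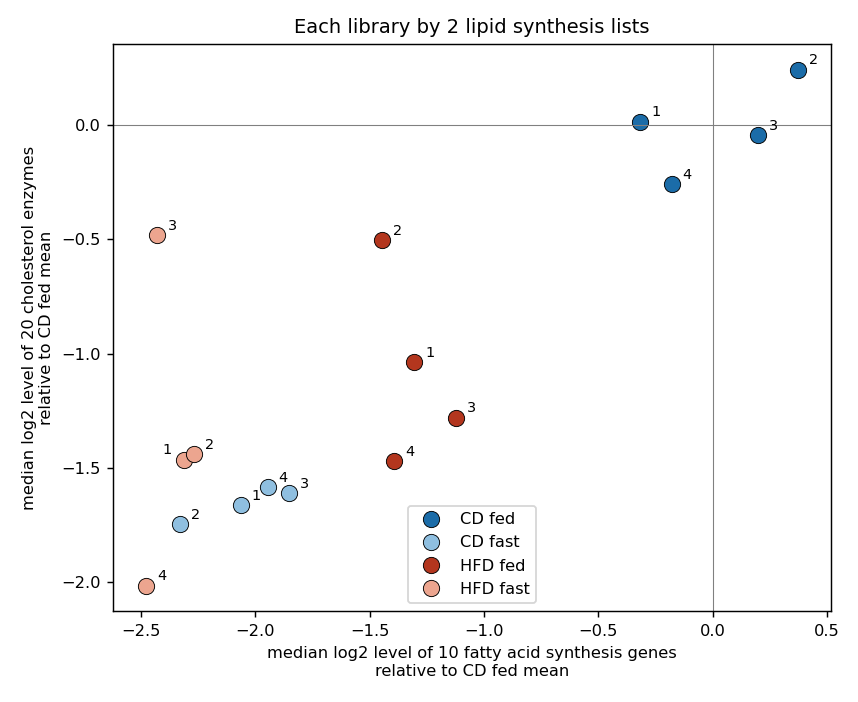
Each of the 16 libraries by its median log2 level of 10 fatty acid synthesis genes (horizontal axis) and of the 20 cholesterol enzymes (vertical axis), both relative to the CD fed mean, with replicate numbers. HFD fast replicate 3 lies at -0.48 for the cholesterol enzymes and at -2.43 for the fatty acid genes, while the other HFD fast libraries lie between -2.01 and -1.44 and between -2.48 and -2.27.

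HFD fast replicate 3 did not stand apart in that list. Its median log2 level of the 10 fatty acid genes relative to CD fed was -2.43, against -2.31, -2.27 and -2.48 in replicates 1, 2 and 4. For the 20 cholesterol enzymes the values were -0.48 in replicate 3 and -1.46, -1.44 and -2.01 in the others. HFD fed replicate 2 likewise had -1.44 for the fatty acid genes, against -1.31, -1.12 and -1.39, and -0.51 for the cholesterol enzymes, against -1.04, -1.28 and -1.47. The erythrocyte markers summed to 460 CPM in HFD fast replicate 3 and to 281 to 304 CPM in the other 3, and their part in the result was not tested.

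Calls were also made among genes of sterol efflux and uptake. Of 7 LXR and efflux genes, 1 rose with fasting on CD, a share near the 13.7% of all genes that rose. It was Nr1h2, which encodes LXR beta (0.31 ± 0.10, adjusted p = 0.0264). Nr1h2 was also the 1 gene of the 7 called with HFD in fasted mice, where 4.65% of all genes fell. There it was lower (-0.34 ± 0.10, adjusted p = 0.0415, or 0.0803 without HFD fast replicate 3). The list had 0 calls by edgeR for fasting on HFD and for HFD in fed mice, with 2 genes at an unadjusted p under 0.05 in each. Of all 15075 genes, 3864 had such a p for fasting on HFD and 3449 for HFD in fed mice. Of 7 lipoprotein receptor and uptake genes 2 were called for fasting on CD and 2 for HFD in fed mice, where 25.2% and 7.50% of all genes were. Vldlr, the VLDL receptor, rose with HFD in fed mice by 1.72 ± 0.40 (adjusted p = 0.0183). The scavenger receptor Cd36 rose with fasting on CD by 1.26 ± 0.31 (adjusted p = 0.00792) and with HFD in fed mice by 1.18 ± 0.31 (adjusted p = 0.0308). Lrpap1, a chaperone of lipoprotein receptors, fell with fasting on CD by -0.33 ± 0.07 (adjusted p = 0.00492). Of 9 genes of ER sterol sensing and degradation, 1 was called for fasting on CD, against 25.2% of all genes, and 1 for HFD in fed mice, against 7.50%. It was the ubiquitin ligase gene Syvn1, which fell with fasting on CD by -0.57 ± 0.20 (adjusted p = 0.0438) and with HFD in fed mice by -1.25 ± 0.20 (adjusted p = 0.00187).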

How the data were processed

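The deposited table gives raw, whole-number counts for each Ensembl gene and library, not normalized. The authors extracted DNase-treated RNA, enriched poly(A) transcripts and built NEBNext Ultra II libraries. Paired reads were aligned by the authors with TopHat2 2.0.11 (first-strand mode) to GRCm38 (mm10), and featureCounts gave the deposited counts; the submitters' processing notes also name CASAVA 1.8.4. The annotation release and the strand setting of the counting are not given in the sources used here, so overlapping and antisense genes are uncertain. All per-sample columns were used.

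Libraries were grouped from the sample labels. A symbol was found for 45229 of 46078 genes and not for 849, and positions and exon lengths were taken from GENCODE M21 on GRCm38. In R 4.3.3, edgeR 4.0.16 filtered genes with filterByExpr (15075 left), scaled by TMM and fitted all 16 libraries with a coefficient for each group, leaving 12 residual degrees of freedom. The study's methods name DESeq2 or an edgeR, voom and limma workflow, which were run as alternatives. Quasi-likelihood tests covered fasting on each diet, diet in each feeding state and the interaction, the change with fasting on HFD minus that on CD. Intervals are 95%. Alternatives were DESeq2 1.42.0, limma-voom (limma 3.58.1), other scalings, no count filter (25514 genes), at least 100 counts in 4 libraries (11331 genes), a fit of the groups compared alone, the replicate number as a block, an adjusted p under 0.01, an absolute log2 change over 1 and the omission of each library. The fitting steps were tested on simulated counts. The 24 pairs of replicates all differed beyond sampling noise (chi-square per gene at least 35.8).

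The 28 genes, the other lists and the marker lists were chosen with earlier results of these data known. All 28 genes are named, with values in every library for those past the threshold in at least 1 comparison; genes of the other lists are named where they passed, at most the 3 with the smallest p per list and comparison. An absent RefSeq promoter entry was left out.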

Additional observations from a re-analysis of the deposited data

Results flagged for a closer look

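Of 112 groups of 4 libraries (28 genes in 4 groups), 9 held a library whose gap to the nearest other exceeded Dixon's critical value, where chance gives about 1 in 20. The 28 genes share the same libraries, so the groups are not independent and the count cannot be tested against that rate. HFD fast replicate 3 accounted for 5 of the 9, each time as the highest library. It had 14.1 CPM for Mvd, 120.5 CPM for Idi1, 17.7 CPM for Fdps, 121 CPM for Cyp51 and 97.2 CPM for Stard4. HFD fed replicate 2 accounted for 3, also as the highest, with 17.5 CPM for Mvk, 9.76 CPM for Mvd and 55.2 CPM for Dhcr7. The remaining one was Acat2 in HFD fed replicate 4, the lowest of its group at 33.7 CPM.

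The change with fasting differed between diets by edgeR's interaction test for 8 genes, as log2 differences (HFD minus CD) of 3.47 for Fdps, 2.75 for Mvd, 1.68 for Pmvk, 1.62 for Lss, 1.51 for Insig1, 1.43 for Dhcr7, 1.38 for Sc5d and 1.12 for Acat2. Leaving out 1 library at a time kept the call of Fdps, Pmvk, Lss and Sc5d in all 16 fits, and lost that of Acat2 and Insig1 in 2 each, Mvd in 7 and Dhcr7 in 12.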

How the results depend on the processing

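Of the 42 calls made on the 28 genes, 0 reversed under any alternative. Other scalings and count filters kept all 42, DESeq2 kept the 41 for which it gave an adjusted p (none was given for Idi1 with fasting on CD), limma-voom lost Mvd in the interaction (0.0583), and fits of the groups compared alone lost Mbtps1 with fasting on CD (0.0528) and Mylip with HFD in fasted mice (0.0589). Leaving out 1 library, calls lost ranged from 0 to 6 of 42 (6 without CD fed replicate 2).

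The counts over the 28 genes moved as follows. Fasting on HFD gave 1 with DESeq2 and 0 to 5 with 1 library left out. HFD in fed mice gave 7 at an adjusted p under 0.01. HFD in fasted mice gave 3 with DESeq2, 3 with total-count scaling, 0 in the fit of these groups alone, 0 with an absolute log2 change over 1, and 1 to 2 with 1 library left out. The interaction gave 15 with DESeq2, 1 at an adjusted p under 0.01, and 4 to 13 with 1 library left out, with a median difference of 0.97 to 1.47.

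Over all genes, an adjusted p under 0.01 gave 1859 calls for fasting on CD, 331 for fasting on HFD, 338 for HFD in fed mice, 217 for HFD in fasted mice and 31 for the interaction, and an absolute log2 change over 1 gave 878, 306, 321, 245 and 166. DESeq2 gave 2009 for fasting on HFD, 1768 for HFD in fed mice, 1967 for HFD in fasted mice and 1066 for the interaction. HFD in fasted mice gave 2101 calls with total-count scaling and 89 in the fit of these groups alone. Leaving out 1 library gave 507 to 1631 calls for fasting on HFD, 510 to 1250 calls for HFD in fed mice, 533 to 1340 calls for HFD in fasted mice and 148 to 468 calls for the interaction. Total-count scaling changed the share of calls that were higher from 54.4% to 44.3% for fasting on CD, 54.0% to 67.6% for fasting on HFD, 43.8% to 68.8% for HFD in fed mice, 39.6% to 88.1% for HFD in fasted mice and 47.4% to 69.6% for the interaction. Upper-quartile scaling gave 51.2% for HFD in fasted mice. The cause of these shifts was not tested.

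Same-numbered libraries of different groups did not vary together in every pair (correlation of deviations -0.24 to 0.66 over 24 pairs, 8 above 0.1; 5 of 16 libraries correlated best with their own number), so the numbers were not taken as pairs. With the replicate block, Dhcr7 lost its interaction call (0.0610), the other 41 calls were kept, and HFD in fasted mice gave 2 calls among the 28 genes. Each group held 4 libraries, and the gene with the fewest reads had 93 in its lowest library. How much of the spread within groups came from counting was not tested.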

Other observations

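Calls were also made among branches that draw on the same isoprenoids and among genes that store or move sterol. Of 10 genes of dolichol, coenzyme Q and prenylation 2 were called for fasting on CD, where 25.2% of all genes were. Fasting on CD lowered Pggt1b, a subunit of a protein prenyltransferase, by -0.28 ± 0.09 and raised Rabggtb, a subunit of the enzyme that prenylates Rab proteins, by 0.28 ± 0.10 (log2 change ± SE, adjusted p = 0.0294 and 0.0430, edgeR). In fasted mice HFD moved the same genes the other way, Pggt1b by 0.32 ± 0.09 and Rabggtb by -0.41 ± 0.10 (adjusted p = 0.0399 and 0.0199). They were 2 of the 10 genes, where 7.70% of all genes were called, and both comparisons share the CD fast libraries. On HFD, fasting lowered Pdss2, of coenzyme Q synthesis, by -0.26 ± 0.08 (adjusted p = 0.0465). It was 1 of the 10 genes, a share near the 8.86% of all genes called in that comparison.

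Of 14 genes of sterol esterification, storage and trafficking, 5 were called for fasting on CD, 3 lower and 2 higher, where 11.5% of all genes fell and 13.7% rose. Osbp, the oxysterol-binding protein, changed by -0.51 ± 0.09, Lcat, which esterifies plasma cholesterol, by 0.40 ± 0.08, and Soat2, the hepatic cholesterol acyltransferase, by -0.35 ± 0.09 (adjusted p = 0.00124, 0.00313 and 0.0114). HFD in fed mice lowered 2 of the 14, where 4.22% of all genes fell. These were Osbp (-0.47 ± 0.09, adjusted p = 0.00681) and Lipa, lysosomal acid lipase (-0.50 ± 0.12, adjusted p = 0.0187). With fasting on HFD Lipa rose (0.56 ± 0.12, adjusted p = 0.0105), 1 of the 14, where 4.78% of all genes rose. In fasted mice HFD lowered 2 of the 9 genes of ER sterol sensing and degradation, where 4.65% of all genes fell. Among them was Aup1, a gene of ER-associated degradation (-0.28 ± 0.07, adjusted p = 0.0270). In the same comparison Lrp1 rose, 1 of 7 uptake genes where 3.05% of all genes rose (0.36 ± 0.10, adjusted p = 0.0396). Without HFD fast replicate 3 the calls of Pggt1b, Rabggtb, Aup1 and Lrp1 with HFD in fasted mice were lost (adjusted p = 0.0833, 0.0602, 0.0833 and 0.0829), as was that of Pdss2 with fasting on HFD (0.0751), while Lipa and Osbp kept theirs.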
